A study of Mus musculus with 2 samples.

Results

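The signal recognition particle (SRP) and its receptor were followed in mouse liver through 10 genes: the 7SL RNA genes Rn7s1 and Rn7s2, the protein genes Srp9, Srp14, Srp19, Srp54a, Srp68 and Srp72, and the receptor genes Srpr and Srprb. They were chosen by gene symbol in the mouse annotation, all 10 were found in the gene tables of both libraries, and they are 10 of the 43346 mouse gene rows. The samples were liver tissue of adult C57BL/6J mice aged 8 weeks, from which total RNA longer than 200 nucleotides was sequenced with ERCC spike-in RNAs added. There were 2 libraries, numbered biological replicates 1 and 2, in 1 group with no treatment or genotype contrast. The labels give each library its own biosample and both the same donor identifier. They do not state the sex or whether the tissue came from separate animals, so the spread between the libraries may be partly or wholly technical. The libraries also stand apart in listed markers of pancreatic acinar, plasma and adrenal cortex cells, which were chosen with earlier results of these data known. Their values, and which of them passed the filter only through replicate 2, are given beside the ratios between the libraries.

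SRP is a ribonucleoprotein that binds the signal peptide of a nascent secretory or membrane protein as it leaves the ribosome, slows elongation and delivers the ribosome to the endoplasmic reticulum (ER). The 7SL RNA is its scaffold: the Alu domain, with SRP9 and SRP14, contacts the ribosome's elongation factor site, and the S domain, with SRP19, SRP54, SRP68 and SRP72, holds the signal peptide and docks on the membrane receptor. Hepatocytes secrete most plasma proteins, albumin among them, and rely on this route.

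Both 7SL genes lie on chromosome 12 in the mm10 assembly, Rn7s1 on the plus strand at chr12:69159295-69159594 and Rn7s2 on the minus strand at chr12:69361182-69361481, 201587 bases apart. Each is a single exon of 300 nucleotides, annotated as a miscellaneous RNA, and their transcripts have 0 differences. The GENCODE M21 annotation also places 2 miRNA genes inside each of them, Gm47287 and Gm47295 in Rn7s1 and Gm47299 and Gm47305 in Rn7s2, covering 70 or 77 bases each. A search of the M21 transcripts found 11 other genes that match Rn7s1 over at least 100 bases at 80% identity or more on the same strand. Of these, 2 had counts in both libraries. Rn7s6 (chr6:69516339-69516629, plus strand) matches bases 1 to 214 of Rn7s1 at 98.6% identity, and Gm26461 (chr9:88553236-88553525, plus strand) matches bases 1 to 201 at 96.5%.

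Rn7s6 differs from Rn7s1 at 3 positions within the match, and its longest identical stretch is 173 bases. Gm26461 differs at 7 positions, with a longest identical stretch of 104 bases. Both stretches are shorter than the mean fragment of the libraries, 211 nucleotides in replicate 1 and 201 in replicate 2. The expected count of Rn7s6 was 199 in replicate 1 and 190.1 in replicate 2. Its posterior standard deviation (SD), the authors' measure of how uncertain a count is, was 1.36 and 1.53 fragments. Gm26461 had 49.0 and 68.0 expected counts, with posterior SDs of 0.05 and 0.10. Of the other 9 genes, 8 had no count in either library and Gm24514 had 0 in replicate 1 and 1 in replicate 2. All 11 summed to 248 and 259 expected counts, which is 0.00125% and 0.00198% of the counts of Rn7s1 and Rn7s2.

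The 7SL genes were the top 2 of the 43346 mouse gene rows by expected count in both libraries. Whether ribosomal RNA was removed is not stated in the sources used here, so ranks and shares hold among these rows only. An expected count is the estimated number of fragments of a gene, with fragments that match several genes divided among them. Rn7s1 had 9656618 expected counts in replicate 1 and 6295010 in replicate 2. Rn7s2 had 10163480 in replicate 1 and 6805105 in replicate 2. Rn7s2 was thus the higher copy in both libraries by this estimate. By the deposited posterior mean the order of the copies was the opposite: Rn7s1 stood at 10774785 and 7156821 fragments and Rn7s2 at 9045313 and 5943295. The share of Rn7s2 in the pair was 51.3% and 51.9% by expected count, and 45.6% and 45.4% by posterior mean. Each copy carried a posterior SD of 3155193 fragments in replicate 1 and 2163832 in replicate 2, which is 31.0% to 34.4% of its expected count. The difference between the copies was smaller than this SD in both libraries and by both estimates, so no order of Rn7s1 and Rn7s2 can be read from these data. The sum of the copies was the same by both estimates to within 0.04 fragments in replicate 1 and 0.07 in replicate 2. The authors' bounds of the TPM estimate, whose level is not given in the sources used here, ran for Rn7s1 between 169347 and 555140 TPM in replicate 1 and between 151741 and 522761 in replicate 2. For Rn7s2 they ran between 146099 and 531996 TPM and between 130139 and 501146 TPM.

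**Figure D1:**
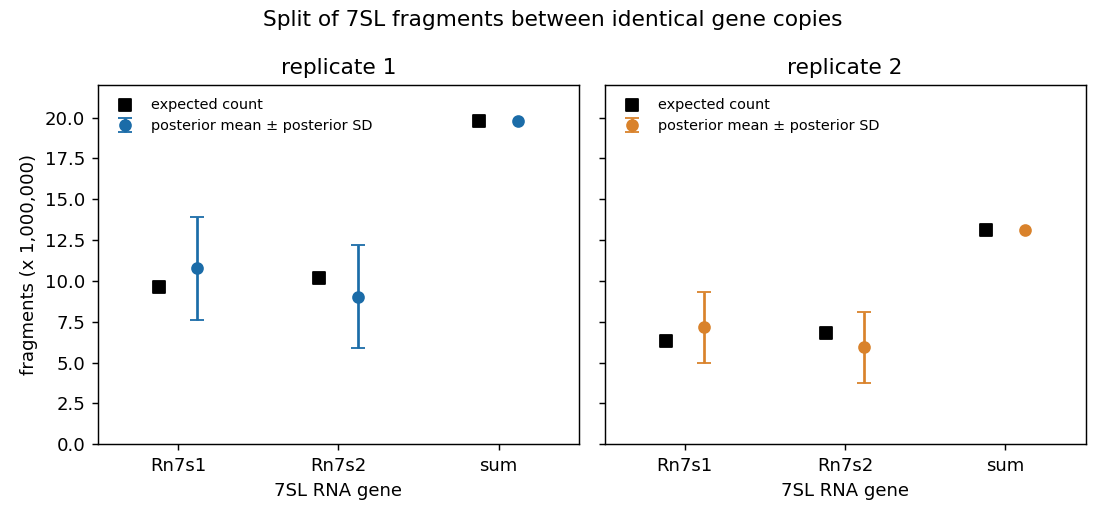
Expected count (black squares) and posterior mean with its posterior SD (coloured circles and bars) of each 7SL gene and of their sum, in fragments, in replicate 1 (left) and replicate 2 (right). The copies change places between the estimates within bars of 3155193 and 2163832 fragments, while the sums of both estimates coincide.

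Such an uncertain split was rare among genes. A posterior SD over 10% of the expected count was found in 67 of 7702 genes that pass the filter in replicate 1 (0.87%) and in 84 of 7699 in replicate 2 (1.09%), and among the 10 SRP genes in the 2 copies of 7SL. Of the protein-coding members, 6 had a posterior SD under 1% of their count in both libraries: Srp9, Srp14, Srp19, Srp68, Srp72 and Srpr. Srp54a had 3.20% in replicate 1 and 7.37% in replicate 2, and Srprb 1.15% and 1.34%. A posterior SD under 1% was the usual case, found in 96.0% of the genes that pass in replicate 1 and 95.9% in replicate 2. To pass, a gene needed at least 1 endogenous TPM and at least 10 expected counts on average over the libraries, and all 10 SRP genes did; 3 further genes without a count in replicate 2 give no percentage there. Endogenous TPM is the deposited length-scaled abundance rescaled over the mouse genes, without the spike-ins.

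As a sum, 7SL had 19820098 expected counts of 83816487 in replicate 1 and 13100116 of 71068191 in replicate 2. This is 23.65% (95% exact binomial interval 23.64 to 23.66) in replicate 1 and 18.43% (18.42 to 18.44) in replicate 2. The intervals cover counting error only, not the spread between samples. By endogenous TPM the share was 70.5% in replicate 1 and 65.8% in replicate 2. The gap between the units comes with the length used: TPM divides by the effective length, the positions a fragment can start from, which was 89.2 nucleotides in replicate 1 and 99 in replicate 2 for the 300 nucleotides of 7SL. With expected counts divided by the annotated length, the share was 60.8% in replicate 1 and 53.5% in replicate 2. In each of the 3 units 7SL had the larger share in replicate 1.

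**Figure D2:**
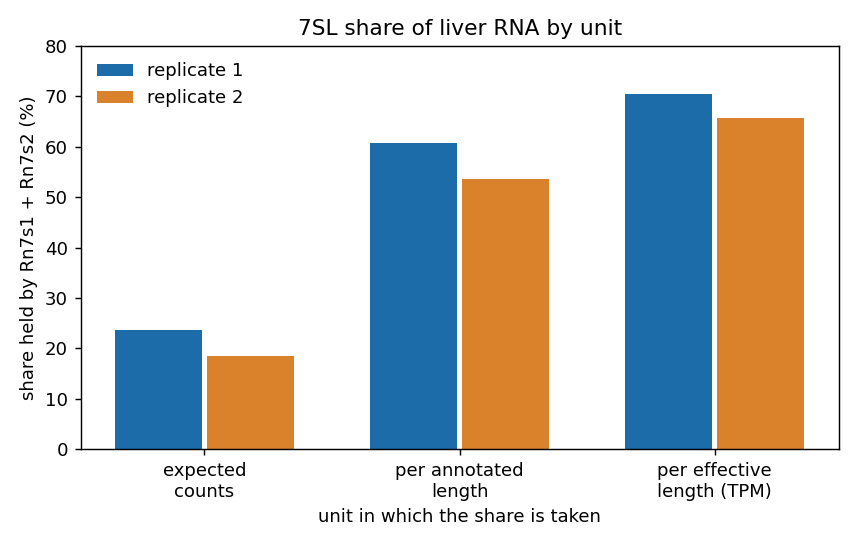
Share of Rn7s1 and Rn7s2 together, in percent, of all mouse genes by expected counts, by counts per annotated length and by TPM, with replicate 1 left of replicate 2 in each pair of bars. The share ranges between 18.43% and 70.5% with the unit and is higher in replicate 1 in all 3.

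Other structural RNAs of ribonucleoprotein particles stood below 7SL. Rn7sk, the RNA that sequesters the elongation factor P-TEFb, had 1576464 expected counts in replicate 1 and 1659083 in replicate 2. Rpph1, the RNA of ribonuclease P, had 1202151 and 876125, and Rmrp, the RNA of ribonuclease MRP, had 268546 and 258590. Terc, the telomerase RNA, had 303 and 182. The vault RNA gene Vaultrc5 had 384 and 251 counts, and the Y RNA genes Rny1 and Rny3 had 3 and 0 counts in each library. The models of these last 3 genes have an effective length of 0 in both libraries, so they are listed at 0 TPM whatever their count. The labels give a size range above 200 nucleotides. Of the 7 RNAs, 4 passed the filter and 0 lay over 2-fold apart between the libraries, beside 2.36% of all genes.

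The large share of 7SL lowers every other TPM. Leaving 7SL out of the total multiplies the TPM of the remaining genes by 3.40 in replicate 1 and 2.92 in replicate 2. The number of genes at 1 TPM or more in both libraries was 6945 with 7SL in the total and 10234 without it. Among the 8 protein-coding SRP genes it was 7 with 7SL and 8 without, Srprb being the one below 1 TPM in replicate 1. The median log2 TPM ratio of the genes that pass the filter, replicate 1 over replicate 2, was -0.51 with 7SL and -0.29 without it. For the protein genes, levels are therefore also given as coding TPM, rescaled over nuclear protein-coding genes, a total that 7SL does not enter.

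The Alu domain proteins had the highest mean coding TPM of the 6 SRP protein genes, with the separate Srp54c row, described with Srp54a, left out. Srp9 (chromosome 1, 182124737 to 182132407) had 4376 expected counts in replicate 1 and 3861 in replicate 2, or 109.2 and 108.5 coding TPM. The libraries gave nearly the same level, 108.8 ± 0.55 coding TPM (SD, n = 2, as for each ± given here), and its rank by mean was 1166 of 21461 protein-coding genes. Srp14 (chromosome 2, 118475850 to 118479711), the partner of Srp9 in the heterodimer that binds the Alu domain, had 1469 counts in replicate 1 and 1060 in replicate 2, or 72.5 and 59.6 coding TPM. Its values of 66.1 ± 9.11 lay below both of Srp9. In M21 Srp9 shares 784 of its annotated exon bases (14.1%) with Gm17968, a processed pseudogene on the opposite strand that had 0 counts.

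Among the S domain proteins, Srp72 (chromosome 5, 76974683 to 76999937), which forms a heterodimer with Srp68, had 4452 counts in replicate 1 and 3901 in replicate 2. Its coding TPM was 43.5 and 43.2, a mean of 43.4 ± 0.19. Srp68 (chromosome 11, 116245166 to 116274217), which binds the RNA at its branch point, had 1562 counts in replicate 1 and 1672 in replicate 2, or 19.8 and 25.2 coding TPM. Both values of Srp68 were below both of its partner Srp72. Srp19 (chromosome 18, 34330847 to 34336599), which prepares the RNA for the binding of SRP54, had 615 counts in replicate 1 and 415 in replicate 2, or 24.9 and 17.8 coding TPM. Srp68 and Srp19 overlapped in level, at 22.5 ± 3.84 and 21.4 ± 5.02 coding TPM. Srp54a (chromosome 12, 55080262 to 55115367) encodes the GTPase that binds the signal peptide and the receptor. It had 2651 counts in replicate 1 and 965 in replicate 2, or 58.9 and 24.2 coding TPM, the widest spread of the 8 protein genes at 41.5 ± 24.5.

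The receptor subunits stood far apart. Srpr (chromosome 9, 35200175 to 35247973), the GTPase subunit that pairs with SRP54, had 5252 counts in replicate 1 and 6220 in replicate 2, or 55.0 and 75.4 coding TPM. Srprb (chromosome 9, 103188032 to 103202137), the membrane anchor of the receptor, had 798 and 876 counts, or 8.06 and 10.1 coding TPM. Both values of Srprb were below those of every other SRP gene, and its mean of 9.06 ± 1.42 coding TPM ranked 6819 of 21461 protein-coding genes. In M21 Srprb shares 888 of its exon bases (20.7%) with the same-strand gene Gm20425, a model that reaches towards the transferrin gene Trf 1863 bases away. Gm20425 had 384 counts in replicate 1 and 381 in replicate 2, with posterior SDs of 43.0 and 51.6 fragments. Srpr shares 39 exon bases with Tirap and 50 with Fam118b, both on the opposite strand, and whether the counting used strand is not stated.

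By mean coding TPM the order of the 8 genes was Srp9, Srp14, Srpr, Srp72, Srp54a, Srp68, Srp19 and Srprb. The ranges of the libraries did not overlap between Srp9 and Srp14, between Srpr and Srp72, and between Srp19 and Srprb. The other neighbours in the order overlapped, so Srp14 and Srpr could not be ordered. Neither could Srp72 with Srp54a, Srp54a with Srp68, or Srp68 with Srp19. Srp54a, at 24.2 to 58.9 coding TPM, also overlapped Srpr at 55.0 to 75.4 and Srp19 at 17.8 to 24.9. Together the 8 genes held 0.0392% of coding TPM in replicate 1 and 0.0364% in replicate 2, 0.0378% ± 0.00197.

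**Figure D3:**
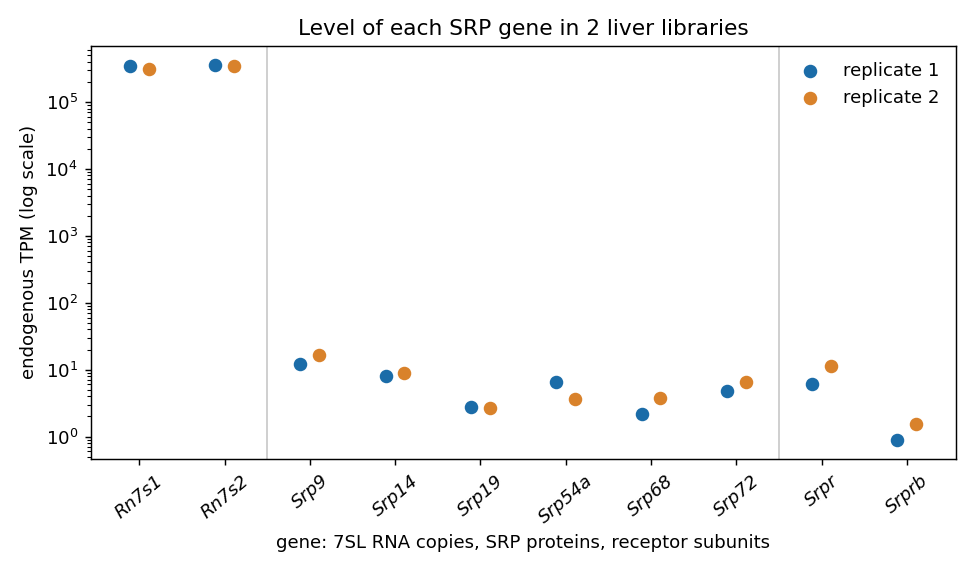
Endogenous TPM of the 10 SRP genes on a log axis, with 7SL RNA genes at the left, SRP protein genes in the middle and receptor genes at the right, replicate 1 left of replicate 2. The 7SL genes lie between 316018 and 361747 TPM, while the protein and receptor genes lie between 0.883 and 16.3 TPM.

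The RNA exceeded its protein messages by orders of magnitude in every unit. Summed 7SL TPM was 19572 times the summed TPM of the 6 SRP protein genes in replicate 1 and 15680 times in replicate 2, a mean of 17626 ± 2752. By expected counts the ratio was 1310 and 1103, and by counts per annotated length 6972 and 6115. The size of the ratio rests on the length used and on which Srp54 rows are counted. These are ratios of a structural RNA to messenger RNAs and not of the RNA to its proteins, which were not measured.

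Srp54 is present in mouse as neighbouring copies on chromosome 12: Srp54a, Srp54b (55155104 to 55189573) and Srp54c (55230168 to 55263836), with gaps of 39736 and 40594 bases. The files have no Srp54b row. Their Srp54c row held 2 transcripts, of which M21 assigns 1 to Srp54b and 1 to Srp54c. The Srp54a row held a single model of 1515 nucleotides, the length of its coding sequence. Over those 1515 bases the transcripts of Srp54a and Srp54b have 0 differences. Srp54c differs at 6 positions, T501C, T945C, G946A, T965G, A1197T and G1249A, counted from the first base of the coding sequence with the Srp54a base first. The window of coding bases 907 to 1026, shown because it holds 3 of the 6, has the differing bases in capitals and is read 5′ to 3′ from the M21 transcripts, on the plus strand of mm10.
Srp54a and Srp54b: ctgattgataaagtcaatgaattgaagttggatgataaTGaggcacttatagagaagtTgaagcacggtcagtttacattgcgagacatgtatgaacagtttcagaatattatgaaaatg
Srp54c: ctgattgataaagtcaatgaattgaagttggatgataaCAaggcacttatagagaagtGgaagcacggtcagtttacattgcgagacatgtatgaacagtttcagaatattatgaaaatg

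Fragments inside the coding sequence can thus be told apart between Srp54a and Srp54c only over those positions, and between Srp54a and Srp54b at none. The Srp54a transcript had 2651 expected counts in replicate 1, against 965 in replicate 2, with posterior SDs of 84.7 and 71.1. The Srp54b transcript, whose model of 3286 nucleotides reaches beyond the coding sequence, had 5305 and 4158 counts, with SDs of 89.6 and 79.3. The Srp54c transcript had 4510 and 2694 counts, with SDs of 64.8 and 54.7. All 3 were higher in replicate 1 as counts, which are not scaled for library size, and Srp54a by the largest factor. As deposited TPM, Srp54a (6.43 and 3.63) and Srp54c (6.77 and 6.30) were higher in replicate 1, and Srp54b (5.46 and 6.67) was lower. Srp54a took 21.3% of the counts of both rows in replicate 1 and 12.3% in replicate 2. The summed rows had 12467 counts in replicate 1 and 7817 in replicate 2, or 170.8 and 110.7 coding TPM, 140.8 ± 42.5. The Srp54c row alone had 112.0 coding TPM in replicate 1 and 86.5 in replicate 2, above both values of Srp14. Both of the sums lay above the values of Srp9, so the place of Srp54 in the order of levels depends on which copies are summed. The posterior SD was under 10% of the count for all 3 transcripts in both libraries, given the files' models of these near-identical copies. M21 lists a further Srp54a transcript of 4498 nucleotides that the files' models do not hold.

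Srp68 was the member whose transcript makeup differed most between the libraries. The transcript Srp68-201 held 85.1% of the gene's TPM in replicate 1 and 54.3% in replicate 2, and Srp68-202 held 14.9% and 43.0%. In expected counts Srp68-201 had 1347 and 964, and Srp68-202 had 215 and 698, each with a posterior SD of 79.4 to 79.6 fragments. The gene's own count, with a posterior SD of 0, is not touched by that division. Of the 7 members with 2 or more transcripts, Srp68 was the 1 with a share that moved by over 20 percentage points, against 6.51% of 5664 genes. In the other 6 the largest move was 5.56 points, in Srp19.

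**Figure D4:**
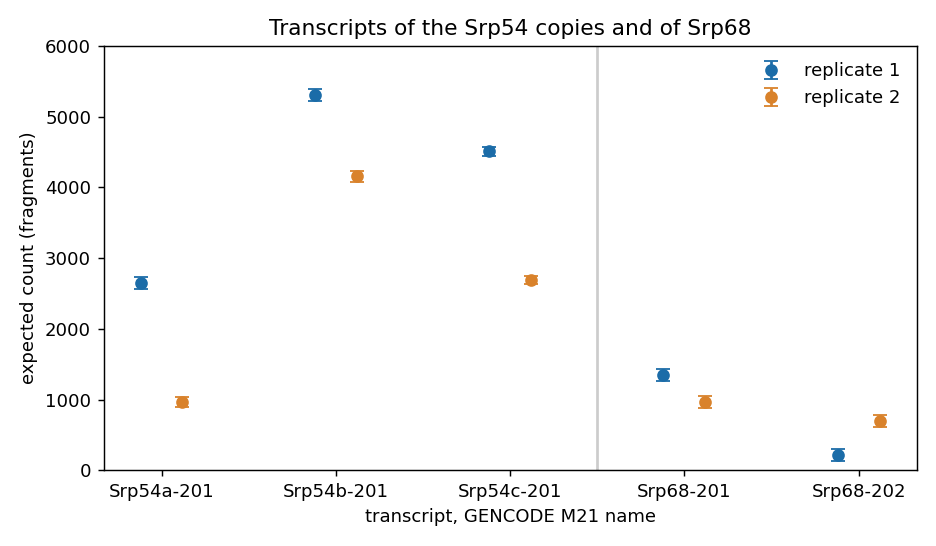
Expected counts with posterior SD of the 3 Srp54 transcripts (left of the line) and of the 2 main Srp68 transcripts (right), replicate 1 left of replicate 2. Srp54a-201 stands at 2651 and 965 counts, and Srp68-202 at 215 and 698, against the opposite direction for Srp68-201 at 1347 and 964.

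The main transcript model held most of the TPM in the remaining members. Srp9-201 held 96.9% in replicate 1 and 97.0% in replicate 2, Srp14-201 99.6% and 95.8%, Srpr-201 99.3% and 97.2%, and Srprb-201 97.0% and 93.9%. Srp72 and Srp19 were divided more widely, with 79.9% and 82.3% in Srp72-201 and 85.8% and 80.2% in Srp19-201. The 7 retained intron models of Srp72, from which no full-length protein is annotated, together held 18.5% in replicate 1 and 17.7% in replicate 2. In expected counts these models held a smaller part, 304.2 of 4452 in replicate 1 and 208.9 of 3901 in replicate 2. In Srp19 a processed transcript held 10.9% and 15%. These shares were similar in both libraries for Srp72 and rested on 49.9 and 43.9 counts for Srp19.

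Between the libraries, ratios were taken as log2 of TMM-scaled CPM (counts scaled to the library total) plus 0.5, replicate 1 over replicate 2. With 1 library on each side there is no replicate check and no test. The 7SL sum had a log2 ratio of 0.51, or 1.42-fold higher in replicate 1, and 6.70% of the 7702 genes had a higher ratio. Srp54a, at 1.34 or 2.53-fold higher in replicate 1, was the 1 of the 10 SRP genes over 2-fold apart. Among all 7702 genes, 2.36% were over 2-fold apart in either direction, 1.57% higher in replicate 1 and 0.792% higher in replicate 2. A count of 1 among 10 genes is too small to be read against those shares. With the Srp54a and Srp54c rows summed, the log2 ratio was 0.58, and no SRP gene was over 2-fold apart. Srp54a alone fell just short of 2-fold after correction for GC content and length, at a log2 ratio of 0.98, and stood at 0.82 as a ratio of TPM, where the median of all genes was -0.51. Srp54a was higher in replicate 1 also by the deposited TPM, although most genes had lower TPM in replicate 1. Its bounds were 5.94 to 6.88 TPM in replicate 1 and 3.10 to 4.23 in replicate 2. These bounds come from the same estimate as the counts, and no base of the coding sequence tells Srp54a from Srp54b.

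The other protein genes lay closer together. Log2 ratios were 0.44 for Srp19, 0.37 for Srp14, 0.10 for Srp72 and 0.09 for Srp9, and they were -0.18 for Srp68, -0.21 for Srprb and -0.33 for Srpr. The median of the 8 genes was 0.10, beside 0.04 for all genes, and 5 of 8 were higher in replicate 1, beside 55.5% of all genes. Relative to the median of all genes, the 7SL sum was higher in replicate 1 by 0.46 to 0.61 under every scaling tried. The median of all genes itself was 0.04 under TMM, -0.24 under spike-in scaling and -0.51 as a ratio of TPM. Srp54a and Srp19 were higher in replicate 1 under each scaling and Srp68, Srpr and Srprb lower. Srp9 and Srp72 changed sign under spike-in scaling and as TPM ratios, Srp9 also after correction for GC content and length, and Srp14 as a TPM ratio. The GC content of 7SL was 62.3%, against a median of 49.7% for the genes that pass the filter and have a value.

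**Figure D5:**
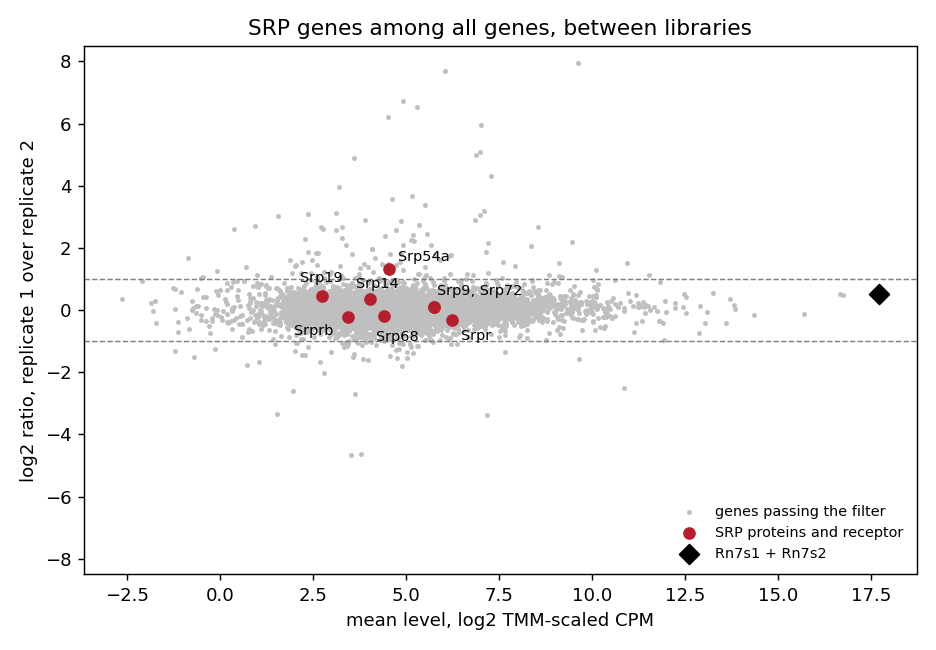
Log2 ratio of replicate 1 over replicate 2 against mean log2 TMM-scaled CPM for the genes passing the filter (grey), the SRP protein and receptor genes (red) and the 7SL sum (black diamond), with dashed lines at 2-fold. Srp54a is the member above the line at 1.34, and the 7SL sum lies at 0.51 at the far right of the level axis.

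The tissue label matched its markers: all 6 hepatocyte genes passed and summed to 8990 endogenous TPM in replicate 1 and 14741 in replicate 2, with Alb at 6978 and 11030, Ttr at 668 and 1038, and Apoa1 at 520.4 and 1246. Each was higher in replicate 2 by TMM, with a median of -0.22 and 0 over 2-fold apart, beside 2.36% of all genes. Markers of other cells differed between the libraries. These marker lists were chosen with earlier results of these data known. All 10 pancreatic acinar genes were over 2-fold higher in replicate 1, beside 1.57% of all genes. The acinar sums were 141.6 and 46.9 TPM with a median log2 ratio of 2.25, and none was at 0. The highest were Cela2a at 26.0 and 12.2, Try4 at 26.3 and 6.91, and Prss2 at 18.9 and 4.38 TPM. Of 8 plasma cell and B lineage genes 3 passed, Igkc, Igha and Ighm, all over 2-fold higher in replicate 2, beside 0.792% of all genes. Igha, at 0.151 and 2.25 TPM, and Ighm, at 0.391 and 1.83, passed only through replicate 2, which set their direction. Igkc was at 1.04 and 8.56 TPM. The list sums were 2.22 and 15.3 TPM, with none at 0. Of 6 adrenal cortex genes 2 passed, Star and Hsd3b1, both over 2-fold higher in replicate 2. Star and Hsd3b1 likewise passed only through replicate 2, which set their direction. The list sums were 0.181 and 13.8 TPM, with Cyp11a1 and Mc2r at 0 counts in replicate 1. Acinar and plasma cells are themselves secretory. The part of these cell types in the ratios of Srp54a, the other SRP genes and 7SL was not tested. In bulk tissue, fewer cells of a type and less RNA per cell cannot be told apart.

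The genes that act after SRP at the ER membrane were measured beside it. Among all genes that pass the filter, 2.36% lay over 2-fold apart, so a count of 0 in such short lists is near that share. Of 13 genes of the Sec61 translocon and its partners, which pass the nascent chain through the membrane, 12 passed the filter and 0 lay over 2-fold apart, with a median log2 ratio of 0.00. The 3 highest by TPM were the ER chaperone Hspa5 at 844 coding TPM in replicate 1 and 998 in replicate 2, the channel subunit Sec61b at 215.6 and 233.8, and Ssr4 of the translocon-associated complex at 177.9 and 194.3. All 5 signal peptidase genes, which remove the signal peptide, passed with 0 over 2-fold apart and a median of 0.24, and Spcs1 was highest at 182.1 and 157.4 coding TPM, followed by Sec11a at 102.7 and 80.8 and Spcs3 at 81.9 and 83.0. All 12 oligosaccharyltransferase genes, which attach N-glycans, passed with 0 over 2-fold apart and a median of -0.14. The highest were Rpn2 at 117.1 and 144.0 coding TPM, Ostc at 134.1 and 129.3, and Ddost at 93.4 and 113.6. The 2 ribosome-binding ER protein genes that passed, of 3, had Rrbp1 at 139.7 and 146.9 coding TPM and Lrrc59 at 40.5 and 46.2, with a median log2 ratio of -0.15.

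Genes of neighbouring routes were measured likewise, and a count of 0 over 2-fold apart again stands beside 2.36% of all genes. Naca and Btf3, the nascent polypeptide-associated complex that shares the ribosomal exit with SRP, stood at 329 and 262 and at 246 and 233 coding TPM. Their log2 ratios were 0.41 and 0.16. Of 6 matched genes of the GET pathway for tail-anchored proteins, 5 passed with 0 over 2-fold apart and a median of -0.22. The highest of these were Sgta at 31.3 and 38.9, Bag6 at 28.0 and 40.8, and Asna1 at 29.3 and 33.4 coding TPM. Of 4 genes for binding and export of 7SL and other RNAs, 3 passed, with 0 over 2-fold apart and a median of 0.44. Ssb, the La protein that binds new RNA polymerase III transcripts, had 2232 expected counts in replicate 1 and 1062 in replicate 2 and a log2 ratio of 0.96. Xpo1, an RNA and protein exporter, had 0.44, and Xpo5, a pre-miRNA exporter, -0.21.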

How the data were processed

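Total RNA of 2 liver libraries was quantified separately by the authors on mm10 with the GENCODE M4 annotation, as the deposited notes state. Which aligner and quantifier were used is not given in the sources used here. In the files, the deposited expected counts are unnormalised estimated counts of fragments per gene or transcript, per the file headers. The deposited TPM values are scaled to effective length and to a fixed total over all rows with the spike-ins. The deposited signal columns give the posterior SD of each count and the bounds of each TPM estimate, and the deposited percent column gives a transcript's share of its gene's TPM, per the file headers.

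Of 43346 mouse gene rows, 42462 matched GENCODE M21 on the same assembly, which supplied symbols, coordinates and transcript sequences. TPM was rescaled over mouse genes, and for coding TPM over nuclear protein-coding genes. Expected counts were rounded for TMM factors (edgeR 4.0.16; 0.950 for replicate 1 and 1.05 for replicate 2) and DESeq2 1.42.0 size factors. A pseudocount of 0.5 CPM equals 39.8 counts in replicate 1 and 37.4 in replicate 2, and ratios understate the change of low genes. The ratio step was checked on simulated data with known large fold changes. That check does not cover smaller ratios or the division of fragments between gene copies. Near copies were found with blastn. The 7SL sequences are not reported here. The rule for named genes took all 10 members, the 3 highest of each list by TPM, all structural RNAs and NAC genes, and list genes over 2-fold apart, of which examples are given. The members and lists were chosen with earlier results of these data known. With 1 group, no test between conditions was possible. Alternatives covered length, scaling, pseudocount, filter, fold and each replicate left out.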

Additional observations from a re-analysis of the deposited data

How the results depend on the processing

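No paired analysis was possible because the design has a single group (n = 1 group). The size of the 7SL values depends on the unit, and their direction between libraries did not change under the alternatives run. Per annotated length the 7SL share was 57.1% and its ratio to the SRP protein genes 6543, and by expected counts the ratio was 1207. With either library alone, the 7SL share ranged from 65.8% to 70.5% of TPM and from 18.4% to 23.6% of counts, the ratio from 15680 to 19572, and the share of the 8 protein genes in coding TPM from 0.0364% to 0.0392%. That share was 0.00489% of endogenous TPM. The 7SL log2 ratio was 0.23 under spike-in scaling, 0.10 as a TPM ratio and 0.62 after correction for GC content and length. The median of the 8 protein genes reversed to -0.18, -0.45 and -0.017 under the same 3 alternatives, while the median of all genes was -0.24, -0.51 and 0.03; the cause was not tested. Srp54a was the single gene over 2-fold apart, and 0 were so as TPM ratios (Srp54a at 0.82) or after GC and length correction (Srp54a at 0.98). In alternatives chosen after seeing the data, adding the Srp54c row gave a ratio of 13282 and a coding share of 0.0477%, and summing the Srp54a and Srp54c rows left 0 genes over 2-fold apart. Depth limits the lower genes: Srp19 and Srprb rest on under 1000 counts in each library.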

Other observations

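With 2 libraries the pattern of a gene across them is a single ratio. Among 1680 genes whose endogenous TPM averaged at least 10, the log2 ratios nearest to that of the 7SL sum, 0.51, were those of Lgals8, which encodes a galectin, Eif4a2, an RNA helicase of translation initiation, and Mbl2, a secreted mannose-binding lectin made by liver. Lgals8 had 12282 expected counts in replicate 1 and 8107 in replicate 2. Eif4a2 had 20590 and 13584, and Mbl2 had 34983 and 23140. In all, 70 of the 1680 genes lay within 0.05 of the 7SL ratio.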
